A study of Mus musculus with 10 samples.

Results

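Uptake, storage and export of iron were described through 10 genes in the mouse uterus on gestation day 3.5. Of the genes, *Scara5*, *Meltf*, *Tfrc*, *Slc11a2* and *Steap4* were grouped under uptake, *Fth1* and *Ftl1* under storage, *Slc40a1* and *Cp* under export, and *Hmox1* under the release of iron from heme. *Meltf* was placed there as a gene for an iron-binding protein, and transport by it was not measured. They were chosen by their known roles with the difference between genotypes in these same libraries in view, so values between genotypes are a description and the p-values beside them are no independent evidence. All 10 were found among the 45706 genes of the count table and all 10 were among the 25146 that averaged 1 count or more over the libraries and were tested. Each would have passed on the control libraries alone, the lowest single count being 8 for *Meltf*.

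The comparison was between 5 uteri of *Arid1a f/f* mice, the controls, and 5 of *Ltf iCre/+ Arid1a f/f* mice. Both groups were mature adult females of a mixed C57BL/6, 129S6/SvEvTac, 129P2/OlaHsd and 129S1/SvImJ background that had mated with wildtype males and were sampled on gestation day 3.5, before implantation. Both carried the floxed *Arid1a* alleles, and *Arid1a* encodes a subunit of the SWI/SNF chromatin remodeling complex. In *Ltf iCre/+ Arid1a f/f* mice, hereafter mutants, Cre recombinase made from the lactoferrin locus removes *Arid1a* in the epithelium of the endometrium. The study adds that this Cre is reportedly also made in neutrophils and other myeloid cells. Deletion in those cells was not measured here. The controls had no Cre allele, so an effect of the Cre insertion itself cannot be told apart from that of the deletion. RNA came from tissue of the whole uterus with all of its cell types, and fewer cells of a type and less RNA per cell cannot be told apart in it.

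Cells take up iron mainly as transferrin bound to the transferrin receptor (*Tfrc*), and some also take up ferritin itself, for which *Scara5* is a receptor. Iron that is not used is kept in the shell of ferritin, built from heavy (*Fth1*) and light (*Ftl1*) subunits, or leaves through ferroportin (*Slc40a1*), after which ferroxidases such as ceruloplasmin (*Cp*) and hephaestin (*Heph*) oxidize it. When iron is scarce, the iron regulatory proteins made from *Aco1* and *Ireb2* bind hairpins called iron-responsive elements, which holds back translation where the hairpin is in a 5′ untranslated region (UTR) and protects the transcript where it is in the 3′ UTR.

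Because this control acts partly on transcript stability and partly on translation, the members' UTRs in the GENCODE annotation of GRCm38 were searched on the sense strand for a C followed by 5 bases of any kind and the letters CAGTGN, with 5 paired bases on either side of the 6-base loop (G-U pairs allowed). A 3′ UTR match, which bears on transcript amount, was found in *Tfrc* alone among the 10, and 5′ UTR matches, which bear on translation, in *Slc40a1*, *Fth1* and *Ftl1*. Over all protein-coding genes, 30 of 20916 with an annotated 5′ UTR held a match (0.143%) and 127 of 21045 with a 3′ UTR (0.603%). The sites are shown as RNA, 30 bases each, to let the matched hairpins of these 4 members be compared, with the loop in capitals. The 4 sites of *Tfrc* lie in exon 19 at chr16:32631218-32631247, chr16:32631597-32631626, chr16:32631662-32631691 and chr16:32631709-32631738 on the + strand. Those of *Slc40a1* (chr1:45925465-45925494, - strand), *Fth1* (chr19:9982731-9982760, + strand) and *Ftl1* (chr7:45459779-45459808, - strand) lie in exon 1.
*Tfrc* site 1: uaauuaucggaagCAGUGCcuuccauaauu
*Tfrc* site 2: acauuaucgggagCAGUGUcuuccauaaug
*Tfrc* site 3: ucuauaucggagaCAGUGAucuccauaugu
*Tfrc* site 4: uaauuaucgggaaCAGUGUuucccauaauu
*Slc40a1* site: ccaacuucagcuaCAGUGUuagcuaaguuu
*Fth1* site: uuuccugcuucaaCAGUGCuugaacggaac
*Ftl1* site: ugucuugcuucaaCAGUGUuugaacggaac
The other 6 members, *Slc11a2* among them, had no match, which says only that the letters with that pairing are not in their annotated UTRs. Hairpins with a less complete stem were not searched, so no member is shown to lack an iron-responsive element. A match is a description of sequence, and binding was not measured.

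The deposited counts per library ranged from 59296537 to 72702411, at which 3 counts stand for 0.0418 to 0.0507 CPM (counts scaled to 1000000 per library, with library sizes from edgeR's TMM method). The deleted gene, *Arid1a*, lay between 192 and 251 CPM in controls and between 165 and 208 CPM in mutants, with a log2 fold change of -0.20 (SE 0.09, edgeR adjusted p = 0.201). *Ltf*, which encodes the iron-binding protein lactoferrin and holds the Cre insertion, lay between 2.22 and 11.7 CPM in controls and between 23.6 and 2831 CPM in mutants. The tissue carried markers of uterine stroma (summed level of 9 genes 10282 to 17531 CPM over the 10 uteri) and smooth muscle (7 genes, 3248 to 11147 CPM), and the liver gene *Alb* did not exceed 0.392 CPM. Mutant uteri 1 and 5 stood apart from mutant uteri 2, 3 and 4 in many genes, and the members they stand out in are given with and without them. These 2 uteri were picked from the same data, and leaving them out also narrows the spread within mutants. The p-values without them are thus a description and do not back a call.

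Of the 10 members, 3 passed the edgeR test (Benjamini-Hochberg adjusted p under 0.05), all higher in mutants, namely *Meltf*, *Tfrc* and *Slc40a1*. By edgeR 0 passed as lower (DESeq2 called 1, *Scara5*), and 7 did not pass, while 8 of the 10 had an unadjusted p under 0.05, as did 26.2% of all tested genes. Over all tested genes 5.19% were called higher and 4.51% lower. In 3 members (*Meltf*, *Slc40a1* and *Ftl1*) every mutant uterus lay above every control and in 1 member (*Scara5*) every mutant uterus lay below, against 5.53% and 5.16% of all tested genes. DESeq2 called 5 members, adding *Scara5* as lower and *Ftl1* as higher, where it called 16.3% of all tested genes. Since the members were picked with this contrast known, nothing is read from these shares.

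**Figure D1:**
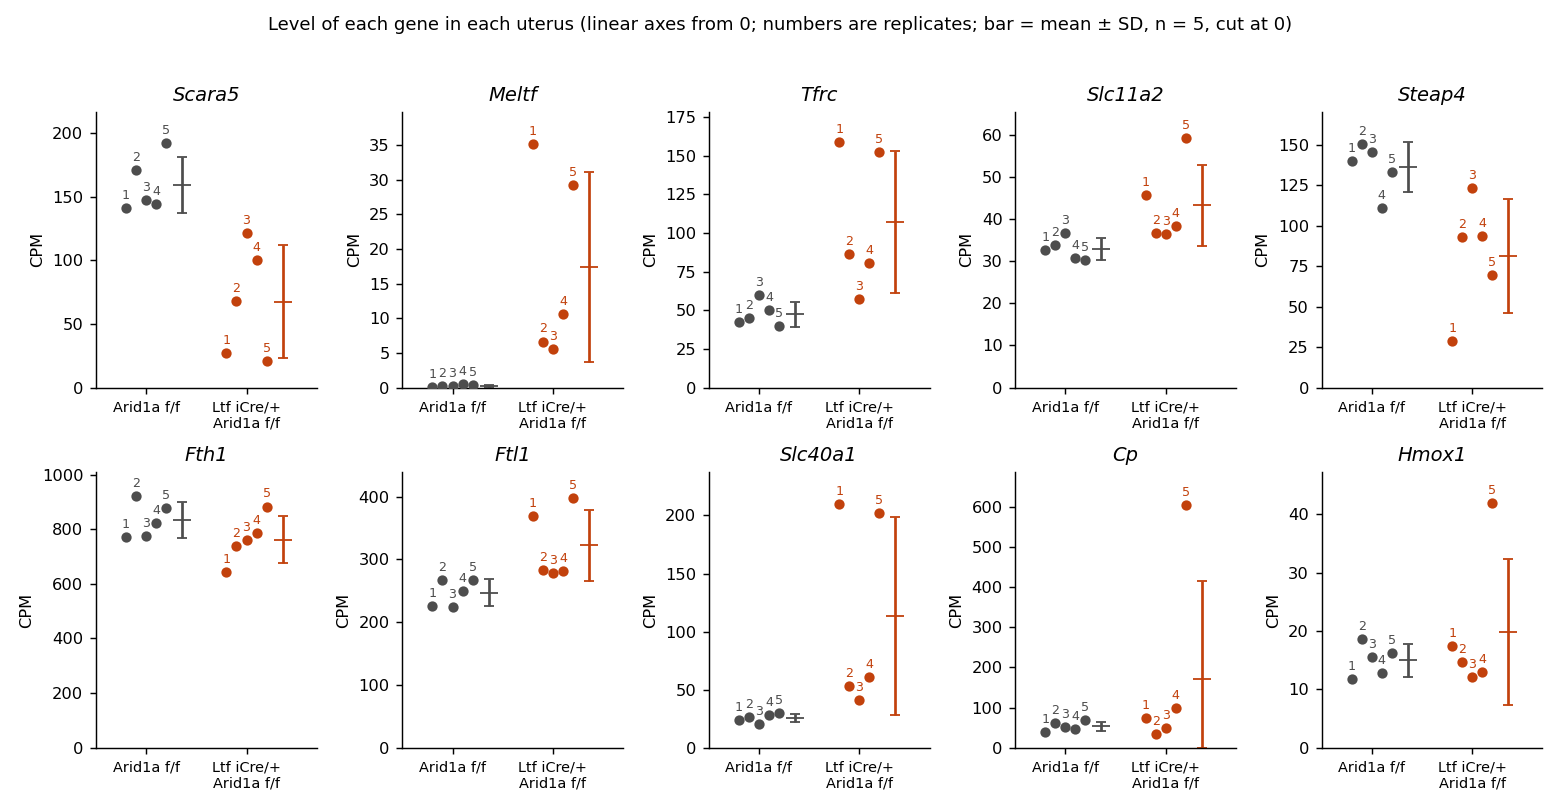
Each panel plots the level of 1 gene in CPM on a linear axis from 0, with 1 point per uterus (numbered by replicate), controls in grey and mutants in orange, and the mean ± SD (n = 5, cut at 0) beside each group. In *Meltf*, *Slc40a1*, *Tfrc* and *Ftl1* mutant uteri 1 and 5 are the highest points, in *Scara5* and *Steap4* they are the lowest, and in *Cp* and *Hmox1* mutant uterus 5 stands alone.

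**Figure D2:**
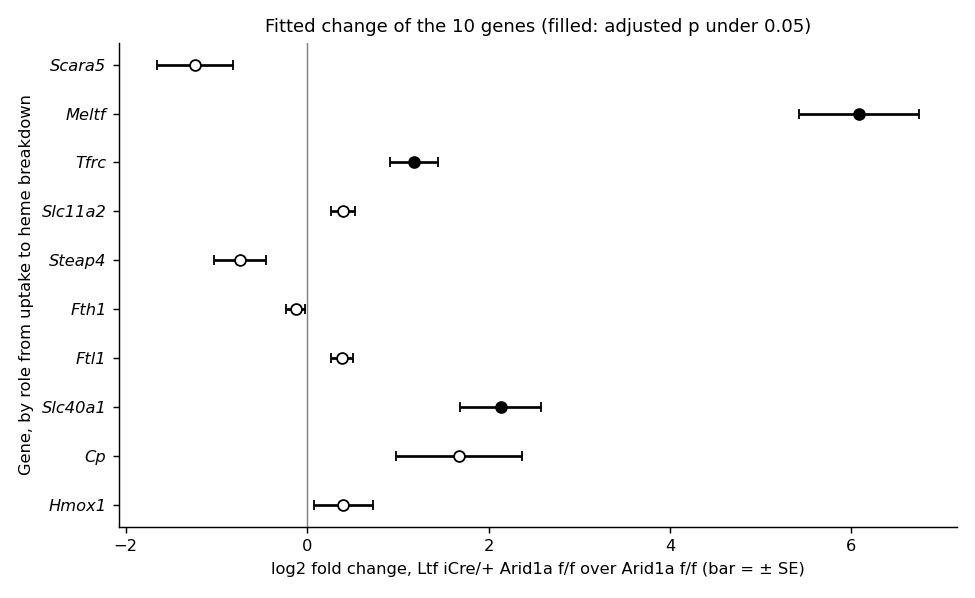
The fitted log2 fold change of mutants over controls is plotted for each gene with its SE, and filled points passed the edgeR test. The change spans from -1.24 for *Scara5* to 6.09 for *Meltf*, and *Meltf*, *Tfrc* and *Slc40a1* are the filled points.

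*Meltf* rose the most of the members. It encodes melanotransferrin, a membrane-anchored protein of the transferrin family that binds iron, and lies on chr16:31878810-31899020 (+ strand, ENSMUSG00000022780). Control uteri 1 to 5 had 0.112, 0.153, 0.266, 0.440 and 0.301 CPM, which rest on 8 to 31 counts each. Mutant uteri 1 to 5 had 35.1, 6.64, 5.54, 10.6 and 29.2 CPM, or 339 to 2238 counts. The lowest mutant uterus was thus far above the highest control, and within the mutants uteri 1 and 5 were the high ones. Fitted over the whole table, the log2 fold change was 6.09 (SE 0.66, edgeR adjusted p = 0.000802), a 68.0-fold higher level. Without mutant uteri 1 and 5 it was 4.89 (edgeR adjusted p = 0.000101), so the size depended on them.

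*Tfrc*, the receptor for transferrin-bound iron and the member whose 3′ UTR matched the searched pattern, also rose. The gene (ENSMUSG00000022797) lies on the same chromosome at chr16:32608920-32632794 (+ strand). Controls 1 to 5 stood at 42.4, 44.7, 59.7, 50.2 and 39.6 CPM. Mutants 1 to 5 stood at 159, 86.6, 56.9, 80.5 and 152 CPM. Mutant uterus 3 lay within the range of the controls, 4 of 5 mutants lay above it, and uteri 1 and 5 were again highest. This gave a log2 fold change of 1.18 (SE 0.26, edgeR adjusted p = 0.0181), or 2.26-fold. It was 0.66 without mutant uteri 1 and 5 (edgeR adjusted p = 0.0243). Without control uterus 2 the change was 1.15 and missed the threshold (edgeR adjusted p = 0.0515).

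*Scara5*, the ferritin receptor (ENSMUSG00000022032, chr14:65666403-65764826, + strand), had the lowest fitted value of the members. Its controls had 141, 171, 148, 144 and 192 CPM. Its mutants had 27.4, 67.9, 122, 100.2 and 20.4 CPM. All mutants lay below all controls, but mutants spread widely, with a coefficient of variation of 65.6% against 13.7% in controls. The log2 fold change of -1.24 (SE 0.42) did not pass the edgeR test (adjusted p = 0.0839). It passed in DESeq2 (log2 fold change -1.24, adjusted p = 0.0167), in edgeR without mutant uterus 3 (-1.56, adjusted p = 0.0393) and in edgeR without mutant uteri 1 and 5 (-0.72, adjusted p = 0.0270). The smaller distance thus passed once the mutants at the low end were left out. The study also measured *Scara5* by RT-qPCR on this gestation day and reported it as significantly lower in mutants.

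*Steap4*, a metalloreductase that turns ferric into ferrous iron (ENSMUSG00000012428, chr5:7960457-7982213, + strand), gave 139.9, 151, 146, 111 and 134 CPM in controls 1 to 5. In mutants 1 to 5 the levels were 28.6, 93.2, 123, 93.6 and 69.6 CPM. Mutant uterus 3 overlapped the controls, 4 of 5 mutants lay below all of them, and uterus 1 was lowest. Its log2 fold change was -0.74 (SE 0.29, edgeR adjusted p = 0.131), and -0.40 without mutant uteri 1 and 5 (edgeR adjusted p = 0.0703).

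*Slc11a2*, which encodes the ferrous iron transporter DMT1 (ENSMUSG00000023030, chr15:100387898-100425072, - strand), varied little in controls, at 32.7, 33.8, 36.7, 30.9 and 30.3 CPM. Its level was 45.7, 36.8, 36.6, 38.4 and 59.2 CPM in mutants 1 to 5. Mutants 2, 3 and 4 lay at the upper edge of the controls, and uteri 1 and 5 lay clearly above. A log2 fold change of 0.40 (SE 0.14) did not pass (edgeR adjusted p = 0.0870), and it was 0.18 without mutant uteri 1 and 5 (edgeR adjusted p = 0.219). An annotated gene on the opposite strand, *Gm5475*, shares 402 exon bases with *Slc11a2* and held 41 counts, 0.161% of those of *Slc11a2*.

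The ferritin subunits are stored iron's shell and were the most abundant members per length. *Fth1* (ENSMUSG00000024661, chr19:9980598-9985098, + strand) makes the heavy subunit with ferroxidase activity. Its level was 770.1, 920.4, 775, 824 and 876 CPM in controls and 643, 738, 762, 786 and 883 CPM in mutants. The groups overlapped, 3 of 5 mutants lay below all controls, and the log2 fold change was -0.13 (SE 0.11, edgeR adjusted p = 0.494). *Ftl1* (ENSMUSG00000050708, chr7:45457944-45459884, - strand), the light subunit, had 226, 268, 224, 250.2 and 267 CPM in controls. In mutants it had 369.5, 283, 279, 282 and 398 CPM, each above the highest control. Its log2 fold change of 0.38 (SE 0.12) missed the threshold in edgeR (adjusted p = 0.0708) and passed in DESeq2 (0.38, adjusted p = 0.0366). Mutants 2, 3 and 4 were close to each other and to the highest controls, and the fitted change was 0.19 without mutant uteri 1 and 5 (edgeR adjusted p = 0.223).

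The proportion of the ferritin transcripts was compared within each library, which does not depend on library size. In controls the counts of *Fth1* per count of *Ftl1* were 3.40, 3.44, 3.46, 3.29 and 3.28, a mean of 3.38 ± 0.08 (SD, n = 5). In mutants they were 1.74, 2.61, 2.73, 2.79 and 2.22, a mean of 2.42 ± 0.44 (SD, n = 5). No mutant reached the lowest control, and uteri 1 and 5 lay farthest from the controls. The summed level of the pair was 1080 ± 85.7 CPM (SD, n = 5) in controls and 1085 ± 112 CPM in mutants. The ratio is given with no test, and a ratio within a library shows unequal change and not which subunit moved. Near copies of these genes held few counts, with 40 in 1 copy of *Fth1* (0.00746% of the gene) and 632 in 7 copies of *Ftl1* (0.332%). The copy of *Fth1* had 90.5% identity, and the closest copy of *Ftl1* had 99.6%. Reads that match a gene and its copy equally may have been left out of both. Few counts in the copies therefore do not show that *Ftl1* was counted in full, which bears on the ratio. On the opposite strand *Gm10252* shares 355 exon bases with *Ftl1* (26.5% of its exon length) and is not among the genes counted by the authors. Whether its reads were added to *Ftl1* depends on the strand setting of the counting, which is not given. *Gm22133* on the same strand held 0 counts.

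**Figure D3:**
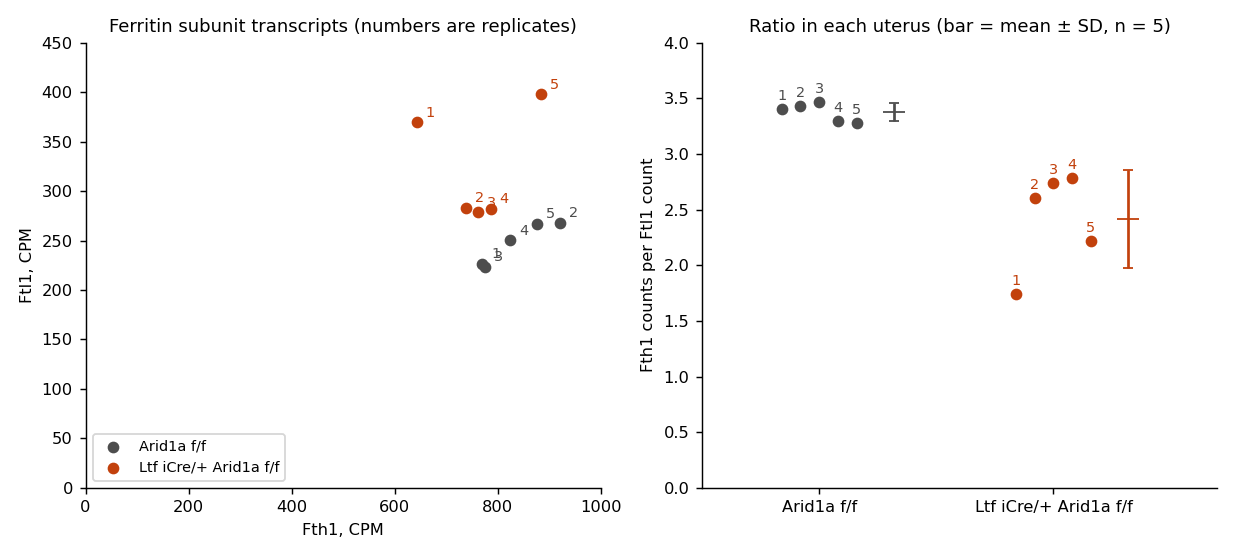
The left panel plots *Ftl1* against *Fth1* in CPM for each uterus (numbers are replicates, both axes from 0), and the right panel the *Fth1* counts per *Ftl1* count with mean ± SD (n = 5). The 5 controls have ratios from 3.28 to 3.46 and the 5 mutants from 1.74 to 2.79, so that mutants have more *Ftl1* for the same *Fth1*.

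Of the genes for export, *Slc40a1* rose. It encodes ferroportin, the exporter of iron from cells (ENSMUSG00000025993, chr1:45908068-45926523, - strand). Control levels were 24.3, 26.4, 20.7, 28.1 and 29.9 CPM. Mutant levels were 210.2, 53.3, 40.9, 60.7 and 202 CPM. Every mutant lay above every control, with uteri 1 and 5 far above the other mutants. *Slc40a1* had a log2 fold change of 2.13 (SE 0.45, edgeR adjusted p = 0.0142), or 4.39-fold. It remained past the threshold at 1.00 without mutant uteri 1 and 5 (edgeR adjusted p = 0.00185). *Tfrc* and *Slc40a1*, which serve import and export, were thus both higher in the same mutant uteri.

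*Cp*, the ferroxidase ceruloplasmin (ENSMUSG00000003617, chr3:19957054-20009145, + strand), was decided by a single uterus. Controls 1 to 5 gave 39.7, 60.4, 52.5, 47.6 and 68.7 CPM. Mutants 1 to 5 gave 73.1, 33.3, 49.9, 98.0 and 605 CPM. Mutant uterus 5 stood far above every other uterus, while uterus 2 lay below all controls and uterus 3 among them. Its log2 fold change of 1.68 (SE 0.69) did not pass (edgeR adjusted p = 0.150), and it was 0.24 without mutant uterus 5 (edgeR adjusted p = 0.628). *Hps3* shares 108 exon bases with *Cp* on the opposite strand, 1.1% of the exon length of *Cp*, and held 24.7% as many counts. How strand was treated in the counting is not given in the sources used here.

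*Hmox1*, heme oxygenase 1, frees iron from heme and responds to oxidative stress (ENSMUSG00000005413, chr8:75093621-75100589, + strand). Controls had 11.7, 18.7, 15.5, 12.7 and 16.3 CPM. Mutants had 17.4, 14.6, 12.1, 12.9 and 41.9 CPM. Mutants 1 to 4 lay within the range of the controls and uterus 5 alone lay above it. The log2 fold change was 0.40 (SE 0.32, edgeR adjusted p = 0.482), and its sign turned to -0.07 without mutant uterus 5 (edgeR adjusted p = 0.825).

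Mutant uteri 1 and 5 were the pair farthest from the control mean in 7 members, namely *Scara5*, *Meltf*, *Tfrc*, *Slc11a2*, *Slc40a1*, *Steap4* and *Ftl1*. This was so in 22.9% of all tested genes and in 18 of 62 other iron and heme genes. On the log2 scale, mutant uterus 3 was the mutant nearest to the control mean in these 7 members, for example at 0.27 for *Tfrc* against 1.75 in uterus 1, and at -0.39 for *Scara5* against -2.96 in uterus 5. The coefficient of variation was larger in mutants than in controls in each of the 10 members. In mutants it was 142% for *Cp*, 78.9% for *Meltf* and 74.9% for *Slc40a1*, and was lowest for *Fth1* at 11.4%. The share of all tested genes with a larger coefficient of variation in mutants was not computed. Per gene, the mean squared count difference between libraries, scaled to counting error, was 54.2 to 134 in controls and 46.3 to 405 in mutants. Among mutant uteri 2, 3 and 4 alone it was 46.3 to 130, no higher than the highest value in controls. Being a mean over genes, it does not say how many genes spread more widely in mutants.

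**Figure D4:**
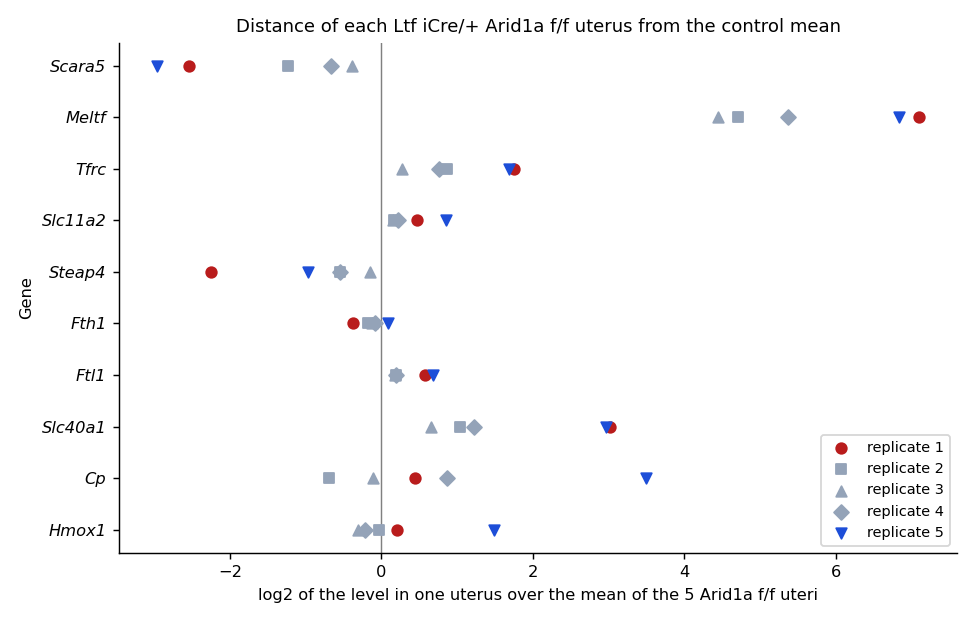
For each gene the 5 mutant uteri are placed by the log2 of their level over the mean of the 5 controls, with uterus 1 in red, uterus 5 in blue and the other mutants in grey. The red and blue points lie outermost in *Scara5*, *Meltf*, *Tfrc*, *Slc11a2*, *Steap4*, *Ftl1* and *Slc40a1*, and the blue point alone does so in *Cp* (3.49) and *Hmox1* (1.48).

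Markers of other cell types also moved in these uteri. The summed level of 8 epithelial genes (*Epcam*, *Krt8*, *Krt18*, *Krt19*, *Cdh1*, *Cldn7*, *Esrp1* and *Elf3*) was 739.5 to 961 CPM in controls and 2511, 1226, 1059, 1298 and 1719 CPM in mutants 1 to 5, and 6 of the 8 were called higher. Markers of glands summed to 244 to 335 CPM in controls and to 89.9, 284, 250.5, 303 and 77.6 CPM in mutants 1 to 5. Of these, 2 of 8, *Foxa2* and *Wfdc3*, were called lower by edgeR, and 4 were called by DESeq2. All 8 were below 0 in fitted log2 fold change. In 5 of the 8 every mutant lay below every control, against 5.16% of all tested genes. *Sox17* had the largest share of the gland sum, at 197 ± 19.6 CPM in controls and 169 ± 93.0 CPM in mutants (SD, n = 5 each). The part of the epithelial and gland markers in the differences of *Meltf*, *Tfrc*, *Slc40a1*, *Scara5* and *Ftl1*, which are largest in mutant uteri 1 and 5, was not tested. Endothelial markers summed to 744 to 1016 CPM in controls and to 374 to 508 CPM in mutants, with 6 of 7 called lower. Stromal markers summed to 12236 to 17531 CPM in controls and to 15673, 14931, 11991, 10282 and 11425 CPM in mutants 1 to 5, with 2 of 9, *Dcn* and *Vim*, called lower and 8 of 9 below 0 in fitted log2 fold change. Smooth muscle markers summed to 6319 to 11147 CPM in controls and to 7403, 8851, 4445, 4766 and 3248 CPM in mutants 1 to 5, with 0 of 7 called by edgeR (1 at an unadjusted p under 0.05, 1 called by DESeq2) and 7 of 7 below 0. The part of the stromal, muscle and endothelial sums in the values of *Scara5* and *Steap4* was not tested.

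Blood cells were looked at because macrophages recycle iron and red blood cells carry it. Neutrophil markers summed to 5.76 to 22.4 CPM in controls and to 15.3, 12.2, 12.8, 22.9 and 834 CPM in mutants 1 to 5, with 2 of 8 called higher. Macrophage markers summed to 328 to 647 CPM in controls and to 503, 545, 637, 798 and 1559 CPM in mutants 1 to 5, and 0 of 10 were called by edgeR (5 with an unadjusted p under 0.05, and 3 called by DESeq2). In fitted log2 fold change 8 of the 10 were above 0 and 2, *Mrc1* and *Mertk*, were below. *Lyz2* had the largest share of the macrophage sum, at 168 ± 58.3 CPM in controls and 382 ± 255 CPM in mutants (SD, n = 5 each). Mutant uterus 5, the uterus that carried the high *Cp* and *Hmox1*, was thus the highest in both sums, and their part in those values was not tested. Of the neutrophil genes, *Camp* and *Ngp* were at 0 in at least 1 uterus of each genotype. Red blood cell markers summed to 20.8 to 79.4 CPM in controls and to 21.5 to 102 CPM in mutants, and 0 of 8 were called by edgeR or DESeq2, with 0 at an unadjusted p under 0.05.

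Between genes, levels were compared as CPM per kilobase of exon. In controls the order was *Fth1* (240.2 ± 18.7, SD, n = 5), *Ftl1* (184 ± 15.9), *Steap4* (43.2 ± 4.88), *Scara5* (26.1 ± 3.57), *Hmox1* (8.56 ± 1.60), *Tfrc* (7.65 ± 1.29), *Cp* (5.62 ± 1.17), *Slc11a2* (5.18 ± 0.400), *Slc40a1* (2.88 ± 0.394) and *Meltf* (0.0616 ± 0.0314). Neighbours from *Hmox1* to *Slc11a2* overlapped in their range over uteri and the other neighbours did not, by this length. In mutants, with all exons as the length, the range of every gene overlapped that of its neighbour except between *Fth1* and *Steap4*. In mutants ferroportin had 12.6 ± 9.45 CPM per kilobase (SD, n = 5), the transferrin receptor 17.3 ± 7.40, DMT1 6.82 ± 1.51 and melanotransferrin, the lowest in both genotypes, 4.21 ± 3.33. The order depends on the length used. With the longest transcript in place of all exons, the levels in controls were 11.8 CPM per kilobase for *Cp*, 9.68 for *Tfrc*, 9.55 for *Hmox1*, 7.45 for *Slc11a2* and 6.59 for *Slc40a1*, each overlapping the next, and *Steap4* (43.2) and *Scara5* (41.9) overlapped as well. By that length *Fth1* was above *Ftl1* in mutants (369.8 against 333 CPM per kilobase), whereas over all exons *Ftl1* was above *Fth1* (240.5 against 219.8).

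**Figure D5:**
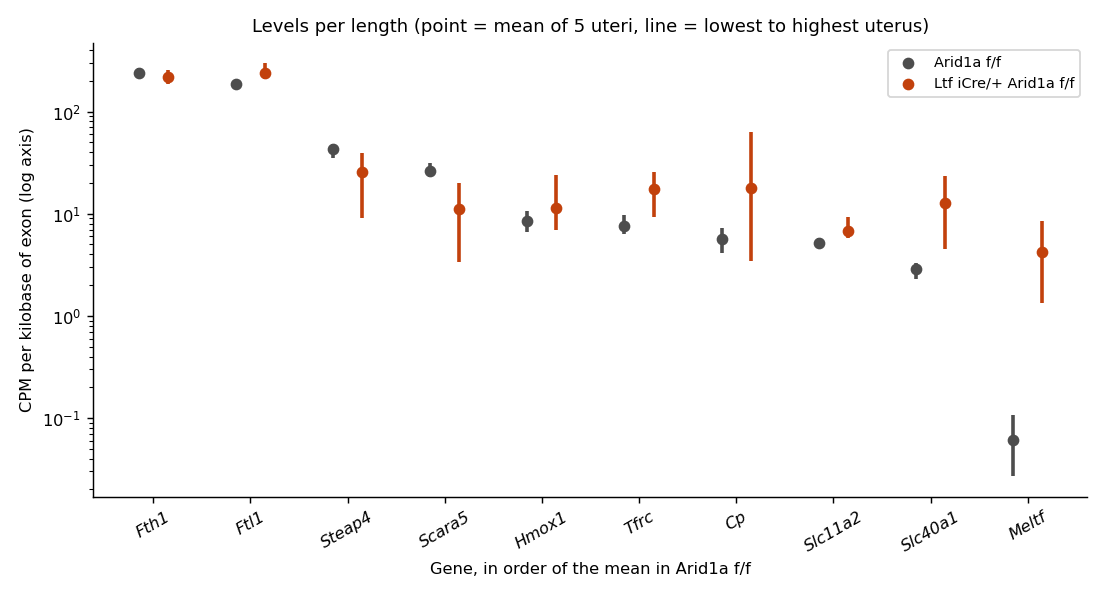
The level per kilobase of exon is drawn on a log axis for each gene, in the order of the control mean, with points for the mean of 5 uteri and lines from the lowest to the highest uterus. The longest line is that of *Cp* in mutants (orange), which spans 3.48 to 63.2 CPM per kilobase, and *Meltf* has the lowest mean in both genotypes.

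Beyond the 10 members, 7 lists of iron and heme genes held 64 genes of the table, of which 62 were tested. By edgeR 4 were called higher (6.45%) and 3 lower (4.84%), which is near the shares over all tested genes of 5.19% and 4.51%, and the median log2 fold change was 0.03, as it was over all tested genes. Only 4 of the 62 passed without control uterus 2 and likewise without control uterus 3.

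Of 10 genes of the transferrin cycle, 1 was called. *Steap1*, a relative of *Steap4*, rose from 0.568 ± 0.196 CPM to 18.5 ± 31.7 CPM (SD, n = 5 each), with mutants 1 to 5 at 13.8, 1.35, 1.13, 1.98 and 74.4 CPM. Each mutant lay above each control, and uterus 5 set the mean. For *Steap1* the log2 fold change was 5.03 (SE 1.19, edgeR adjusted p = 0.0242) and 3.00 without mutant uterus 5 (edgeR adjusted p = 0.0269). It was 1.39 without mutant uteri 1 and 5 (edgeR adjusted p = 0.0228), and it lost the call when any 1 control was left out (edgeR adjusted p from 0.0518 to 0.0678). *Trf*, transferrin itself, was scarce at 0.434 ± 0.100 CPM in controls and 0.650 ± 0.224 CPM in mutants (edgeR adjusted p = 0.239).

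Among 6 genes of import without transferrin, edgeR called *Lcn2* higher and *Cubn* lower. *Lcn2* encodes lipocalin 2, which binds iron-loaded siderophores and is plentiful in neutrophils and inflamed epithelium. It lay between 0.838 and 1.71 CPM in controls and at 635, 4.61, 2.35, 32.8 and 1659 CPM in mutants 1 to 5. The genotypes did not overlap, and uteri 1 and 5 were high. For *Lcn2* the log2 fold change was 8.60 (SE 1.79, edgeR adjusted p = 0.0139), 7.13 without mutant uterus 5 (edgeR adjusted p = 0.0163) and 3.46 without mutant uteri 1 and 5 (edgeR adjusted p = 0.0109). *Cubn*, the endocytic receptor cubilin, went from 2.45 ± 0.180 CPM to 0.842 ± 0.318 CPM (log2 fold change -1.54, SE 0.26, edgeR adjusted p = 0.00515). *Lrp2*, of the same list, is named after its values were seen. It lay between 502 and 833 CPM in controls and at 3.26, 234, 259, 133 and 2.40 CPM in mutants 1 to 5. Every mutant lay below every control, but *Lrp2* did not pass in edgeR (log2 fold change -2.34, SE 0.99, adjusted p = 0.161).

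In the list of the hepcidin axis and export, 6 of 8 genes were tested and *Heph*, the ferroxidase hephaestin that works with ferroportin, fell. It had 57.9, 67.2, 67.0, 68.2 and 77.1 CPM in controls and 26.2, 49.8, 53.2, 42.0 and 33.5 CPM in mutants. All mutants lay below all controls, with uteri 1 and 5 lowest. The log2 fold change was -0.72 (SE 0.17, edgeR adjusted p = 0.0251), -0.48 without mutant uteri 1 and 5 (edgeR adjusted p = 0.0185), and the call was lost without control 2, 3, 4 or 5 (edgeR adjusted p from 0.0559 to 0.0580). The exporter *Slc40a1* and the ferroxidase *Heph* therefore moved in opposite directions. *Hamp*, which encodes hepcidin, the liver hormone that has ferroportin degraded, did not exceed 0.0839 CPM, or 6 counts, in any uterus.

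Heme uptake, transport and breakdown was covered by 12 genes, of which 1 was called higher and 1 lower. *Hp*, haptoglobin, which binds free hemoglobin, had 2.87 to 4.52 CPM in controls and 6.44, 18.4, 20.6, 17.4 and 33.8 CPM in mutants 1 to 5 (log2 fold change 2.34, SE 0.35, edgeR adjusted p = 0.00293). Here uterus 1 was the lowest mutant, unlike in the members that rose. *Abcg2*, a transporter that can export heme precursors, lay between 78.7 and 99.4 CPM in controls and between 41.3 and 58.9 CPM in mutants (log2 fold change -0.83, SE 0.12, edgeR adjusted p = 0.00227).

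For heme synthesis 0 of 8 genes were called by edgeR or DESeq2, and 1 (*Cpox*) had an unadjusted p under 0.05. Of 13 genes of mitochondrial iron and iron-sulphur clusters, *Abcb10*, a transporter of the inner mitochondrial membrane, was called higher (26.9 ± 1.74 to 35.4 ± 3.87 CPM, log2 fold change 0.40, SE 0.09, edgeR adjusted p = 0.0233), and it lost the call without control 1, 2 or 3 (edgeR adjusted p from 0.0526 to 0.0630) and without mutant uteri 1 and 5 (0.29, edgeR adjusted p = 0.0534).

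The genes that sense iron and turn ferritin over did not pass in edgeR, with 0 of 7 called, 1 at an unadjusted p under 0.05 and 1 called by DESeq2 (*Ncoa4* in both cases). *Aco1* stood at 94.8 ± 8.76 CPM in controls and 87.8 ± 10.3 CPM in mutants (SD, n = 5 each, edgeR adjusted p = 0.521). *Ireb2* stood at 167 ± 11.9 and 179 ± 13.8 CPM (edgeR adjusted p = 0.470). The activity of both proteins depends on iron and was not measured. *Ncoa4*, the receptor that carries ferritin to lysosomes, had 35.0 ± 1.96 CPM in controls and 28.6 ± 3.03 CPM in mutants, with every mutant below every control (log2 fold change -0.29, SE 0.09). It did not pass in edgeR (adjusted p = 0.0679) and passed in DESeq2 (adjusted p = 0.0232).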

How the data were processed

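RNA of 10 uteri, 5 of each genotype, was sequenced by the authors as paired-end mRNA libraries. Per the submitters' processing notes, cutadapt 1.18, Trim Galore 0.6.4, FastQC 0.11.9 and STAR 2.7.3a were used with GRCm38, and the authors deposited whole-number counts of reads per gene, with no normalization. The annotation release and the strand setting are not given in the sources used here. All 10 columns were matched to samples by name. Groups came from the genotype labels, and replicates are separate uteri, so p-values set the difference between genotypes against the spread between these uteri. The litter of each mouse is not given in the labels, and the uteri were taken as independent.

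Counts were analysed with edgeR 4.0.16 in R 4.3.3 (TMM library sizes, quasi-likelihood test, genotype as the only factor, genes with a mean count of 1 or more, Benjamini-Hochberg adjustment over all 25146 tested genes, threshold 0.05). DESeq2 1.42.0, the tool of the study, was an alternative. CPM values and fold changes belong to the same fit, and a fitted fold change is on the scale of that model. The SE printed was derived from that fit as the absolute log2 fold change divided by the square root of the test's F statistic. The fits were tested on simulated data. GENCODE's annotation of GRCm38 gave symbols, coordinates, exon lengths and UTRs, and held 45143 of the 45706 identifiers. UTRs were read from its transcripts as annotated. Near copies were sought with blastn 2.17.0 (identity of 90% or more over 50% or more of the coding sequence). Figures were drawn with matplotlib 3.10.9.

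The members and lists were chosen with earlier results of these data known. Genes named beside the 10 members were, for each list, the called genes (at most 4, by lowest adjusted p), then *Aco1*, *Ireb2*, *Trf*, *Ncoa4*, *Hamp* and *Heph*, the deleted gene, the Cre locus, and genes or copies sharing sequence with a member. Other named genes were members of marker lists, were named because a count was 5 or less, or were named after their values were seen. The lists were 7 of iron and heme genes, 1 of NRF2 targets and 9 of cell type markers. Alternatives were 2 other scalings, DESeq2, 2 other filters, the replicate number as a block, the omission of each uterus and of mutant uteri 1 and 5 together, and the length used for levels per kilobase. No pair of libraries was a duplicate. At this depth 3 counts stand for 0.0418 to 0.0507 CPM, which covers counting error only.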

Additional observations from a re-analysis of the deposited data

Results flagged for a closer look

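In 3 genes 1 mutant uterus lay far from the other 4 of its group, with a gap to its nearest neighbour that took up more of the group's range than Dixon's 95% critical value of 0.71 for 5 samples. *Hmox1* stood at 41.9 CPM in mutant uterus 5, where the next mutant had 17.4 CPM (ratio 0.822). *Cp* stood at 605 CPM in the same uterus, next to 98.0 CPM (ratio 0.887). *Steap1*, which is no member, stood at 74.4 CPM there, next to 13.8 CPM (ratio 0.827). Of 50 groups examined 3 were so marked, 2 of them among the 20 groups of the members. Chance alone marks about 1 in 20 groups where values are normally distributed. The ratios were taken on linear CPM, where a high value stands out more than on a log scale, and the log scale was not examined. All 3 were in mutant uterus 5, which also had the highest summed neutrophil markers (834 CPM, 12.2 to 22.9 CPM in the other mutants) and macrophage markers (1559 CPM, 503 to 798 CPM in the other mutants). The part of these cells in the 3 values was not tested.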

How the results depend on the processing

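Directions and calls of *Meltf*, *Slc40a1*, *Slc11a2*, *Cp*, *Steap4* and *Fth1* were unchanged in all 17 alternatives, which for *Meltf* gave log2 fold changes of 4.89 to 6.38 and for *Slc40a1* of 1.00 to 2.35. DESeq2 called 4103 genes in all, 13 other iron and heme genes and 5 members, with *Scara5* (-1.24) and *Ftl1* (0.38) added. With single uteri left out, 1204 to 2381 genes, 4 to 10 other iron and heme genes and 2 to 4 members were called. Without control 2, 3 or 4 the numbers of genes were 1204, 1248 and 1414, and the lowest counts of iron genes came without control 2 or 3 and that of members without control 2. *Scara5* ranged from -1.56 to -1.005 and *Tfrc* from 0.99 to 1.34 over these omissions. *Hmox1* ranged from -0.073 to 0.53, its sign turning without mutant uterus 5, and was -0.18 without mutant uteri 1 and 5. Likewise *Scara5* was -0.72 without those 2 uteri. Omissions leave fewer samples, and otherwise the cause was not tested.

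The groups share replicate numbers, but same-numbered uteri did not deviate together (correlations of 0.05, 0.09, -0.16, 0.05 and 0.22 over 14591 genes), so they were not treated as pairs. With the replicate block 1704 genes were called, *Tfrc* had a log2 fold change of 1.09 (edgeR adjusted p = 0.0698), and no other member changed its call. *Steap1*, *Lcn2*, *Abcb10* and *Slc7a11* lost theirs. The 17 other named genes gave 288 alternative values, of which 266 kept direction and call, 20 lost the call, 2 gained it (*Ncoa4*) and 0 turned sign. *Hamp* has no value under the stricter filter, which removes it. Depth limits *Meltf* in controls and *Hamp*, with at most 31 and 6 counts per control library.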

Other observations

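The list of 10 NRF2 targets outside iron handling, which share a regulator with *Hmox1*, *Fth1* and *Slc40a1*, had 3 genes called higher and 0 lower by edgeR, and 4 called by DESeq2, with 7 of 10 above and 3 of 10 below 0 in fitted log2 fold change. *Gclc*, a subunit of the enzyme that starts glutathione synthesis, rose from 57.9 ± 6.39 to 103 ± 23.8 CPM (SD, n = 5 each, log2 fold change 0.83, SE 0.16, edgeR adjusted p = 0.00981). *Gsta4*, a glutathione transferase, rose from 55.1 ± 11.0 to 110.5 ± 16.1 CPM (log2 fold change 1.00, SE 0.14, edgeR adjusted p = 0.00263), and each mutant lay above each control. *Slc7a11*, the cystine importer that supplies glutathione synthesis, had 11.6 to 25.2 CPM in controls and 101, 46.7, 18.9, 40.4 and 160.3 CPM in mutants 1 to 5 (log2 fold change 2.10, SE 0.48, edgeR adjusted p = 0.0216). Its call was lost without control 2, 3 or 5 (edgeR adjusted p from 0.0515 to 0.0614), and its log2 fold change was 1.04 without mutant uteri 1 and 5. The 3 below 0 did not pass in edgeR and are named after their values were seen. *Gstm1* had 463 ± 63.8 CPM in controls and 237 ± 122 CPM in mutants, each mutant below each control (log2 fold change -0.97, SE 0.34, edgeR adjusted p = 0.0980). *Nqo1* had 9.99 ± 2.36 and 6.14 ± 2.40 CPM (-0.70, SE 0.27, edgeR adjusted p = 0.130). *Gclm* had 59.04 ± 4.57 and 52.6 ± 14.3 CPM (-0.17, SE 0.15, edgeR adjusted p = 0.546), with 4 of 5 mutants below all controls. Over all tested genes 5.19% were called higher.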
